A study of Rattus norvegicus with 24 samples.

Results

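Fibrinogen is represented on the array by 6 probe sets whose platform annotation names only Fga, only Fgb or only Fgg, out of 31139 probe sets in all. Fga has 2 of them, Fgb has 3 and Fgg has 1, and all 6 were measured in every rat. Liver RNA of 24 male Sprague Dawley rats, aged 8 weeks, was hybridised to 1-colour arrays, with 1 rat per array and 6 rats in each of 4 groups. The ANIT groups had received alpha-naphthylisothiocyanate, a toxicant of bile duct epithelium and hepatocytes, as 1 intragastric dose of 50 mg/kg in corn oil. The vehicle groups had received corn oil alone, in an equal volume of 10 ml/kg, and necropsy followed at 24 h, described in the labels as peak injury, or at 120 h, described as resolution. All 24 rats had been fasted for about 18 h the night before necropsy and had received BrdU, a label of dividing cells, at 100 mg/kg about 2 h before it. Each group holds separate rats, so errors below are between animals, and having 6 rats per group sets how precise any value can be. Rats are numbered 1 to 6 within a group in the order of the samples.

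Fibrinogen is the soluble plasma protein that thrombin turns into fibrin, the mesh of a blood clot. Hepatocytes make it from an Aα, a Bβ and a γ chain, encoded by Fga, Fgb and Fgg, and assemble a pair of each into the secreted molecule. It is a classical acute phase protein: interleukin-6 acting through STAT3, with C/EBP factors and glucocorticoid, raises transcription of the chains.

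The chain genes lie next to each other in the order Fgg, Fga, Fgb on chromosome 2 of the rat assembly GRCr8, with Lrat beyond Fgg and the uncharacterised LOC134485930 beyond Fgb. The 250 bases before the RefSeq start of each gene are shown, 5′ to 3′ on the gene's own strand. They come from RefSeq on GRCr8, where all 3 genes matched, with capitals marking CTGGGA, the core of the IL-6 response elements described in fibrinogen genes, on either strand. The windows are chr2:170652833-170653082 (+) for Fgg, chr2:170671919-170672168 (+) for the first listed start of Fga, and chr2:170700876-170701125 (-) for Fgb.
Fgg: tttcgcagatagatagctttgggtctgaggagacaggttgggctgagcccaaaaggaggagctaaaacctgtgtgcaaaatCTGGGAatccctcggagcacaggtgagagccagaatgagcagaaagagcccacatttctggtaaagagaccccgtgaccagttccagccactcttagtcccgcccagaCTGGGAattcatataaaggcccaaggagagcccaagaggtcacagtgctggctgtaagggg
Fga: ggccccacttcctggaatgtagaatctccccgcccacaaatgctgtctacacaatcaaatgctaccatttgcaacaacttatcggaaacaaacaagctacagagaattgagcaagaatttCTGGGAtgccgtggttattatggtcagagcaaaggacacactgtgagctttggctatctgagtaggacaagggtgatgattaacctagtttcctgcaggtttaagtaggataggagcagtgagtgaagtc
Fgb: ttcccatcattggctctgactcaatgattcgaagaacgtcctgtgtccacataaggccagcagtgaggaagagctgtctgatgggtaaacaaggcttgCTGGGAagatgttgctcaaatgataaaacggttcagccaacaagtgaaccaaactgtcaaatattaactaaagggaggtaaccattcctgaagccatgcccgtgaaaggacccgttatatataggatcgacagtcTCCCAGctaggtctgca

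The CTGGGA core occurred in all 3 windows. In Fgg it lay 169 to 164 and 61 to 56 bases before the start, and in Fga 130 to 125 bases before it. In Fgb it lay 152 to 147 bases before the start and, on the opposite strand, 17 to 12 bases before it. This core is common: 25.73% of 33469 RefSeq windows of equal length held it on either strand, and 4.22% held 2 or more, as Fgg and Fgb did. The STAT-type palindrome TTCNNNGAA was found in Fga at 242 to 234 and in Fgb at 223 to 215 bases before the start, and in 7.67% of all windows. The C/EBP-type pattern TTNNGNAA was found in Fga at 144 to 137 and in Fgb at 141 to 134 and 68 to 61, and in 37.19% of all windows. GTTAAT, the half-site of the transcription factor HNF1, was found on the opposite strand in Fga at 52 to 47 and in Fgb at 90 to 85. It was in 6.45% of all windows. None of these matches overlapped another, and in Fgg only the CTGGGA matches were found in this window. The window of the second listed Fga start held the same Fga matches except the STAT-type palindrome. The matches are letters in a window and not measured sites.

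The deposited values are log2 expression values, and each chain is described first by the probe set with its highest mean, which also stands for the gene in the test over 13438 genes. At 24 h the RNA of all 3 chains was higher in ANIT than in vehicle rats, by 1.17-fold for Fga, 1.33-fold for Fgb and 1.28-fold for Fgg. At 120 h no chain was called in the limma test between ANIT and vehicle rats. In whole liver, a change in the share of cells of a type and a change in RNA per cell cannot be told apart.

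Fgb, the Bβ chain, had the largest 24 h change among the brightest probe sets. Its value was lowest 12.51, median 12.66 and highest 12.83 in the 24 h vehicle group, and 13.04, 13.06 and 13.11 in the 24 h ANIT group. At 120 h it was 12.72, 12.74 and 12.83 in vehicle and 12.53, 12.67 and 12.78 in ANIT rats. All 6 ANIT rats of 24 h therefore lay above every other rat of the study, and the other 3 groups overlapped. The 24 h means were 12.66 ± 0.10 (SD, n = 6) for vehicle and 13.07 ± 0.03 for ANIT, a log2 change of 0.41 ± 0.07 (SE; 95% interval 0.27 to 0.55, limma adjusted p = 6.31e-05 over all genes). The exact two-sided permutation test over the 12 rats gave p = 0.0022, the smallest that 6 rats against 6 allow.

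Fgg, the γ chain, which carries the main docking site for the platelet integrin, gave a similar picture. Vehicle rats of 24 h had a lowest value of 12.37, a median of 12.48 and a highest value of 12.61, and ANIT rats of 24 h had 12.79, 12.86 and 12.88. At 120 h the values were 12.33, 12.41 and 12.50 in vehicle and 12.38, 12.47 and 12.52 in ANIT rats. Again every ANIT rat of 24 h lay above all rats of the other 3 groups, which overlapped one another. The mean rose from 12.49 ± 0.08 (SD, n = 6) to 12.85 ± 0.04 at 24 h, a log2 change of 0.36 ± 0.06 (SE; 95% interval 0.23 to 0.49, limma adjusted p = 0.000173), with an exact permutation p of 0.0022.

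Fga, the Aα chain, which provides the fibrinopeptide A that thrombin removes first, had the smallest change on its brighter probe set, 1370992_PM_a_at. Vehicle rats of 24 h had a lowest value of 12.57, a median of 12.66 and a highest value of 12.73, and ANIT rats of 24 h had 12.67, 12.90 and 13.02. At 120 h the values were 12.53, 12.61 and 12.65 in vehicle and 12.57, 12.61 and 12.73 in ANIT rats. At 24 h 5 of 6 ANIT rats lay above every vehicle rat, while ANIT rat 6 (12.67) lay among them. The mean was 12.66 ± 0.07 (SD, n = 6) for vehicle and 12.88 ± 0.13 for ANIT, a log2 change of 0.22 ± 0.07 (SE; 95% interval 0.08 to 0.36, limma adjusted p = 0.026; exact permutation p = 0.00866). This call was lost, with an adjusted p between 0.0513 and 0.064, when vehicle rat 3 or 4, or ANIT rat 1, 4 or 5, of 24 h was left out. It was also lost without the 6 arrays of narrowest value range (0.20, adjusted p = 0.163) and with only the 24 h groups in the fit (0.22, adjusted p = 0.0917). With a covariate for the beta-actin ratio, an RNA quality measure given further on, the change was 0.16 (limma adjusted p = 0.505). At 24 h this ratio did not overlap between the groups, so that fit cannot tell it apart from ANIT.

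**Figure D1:**
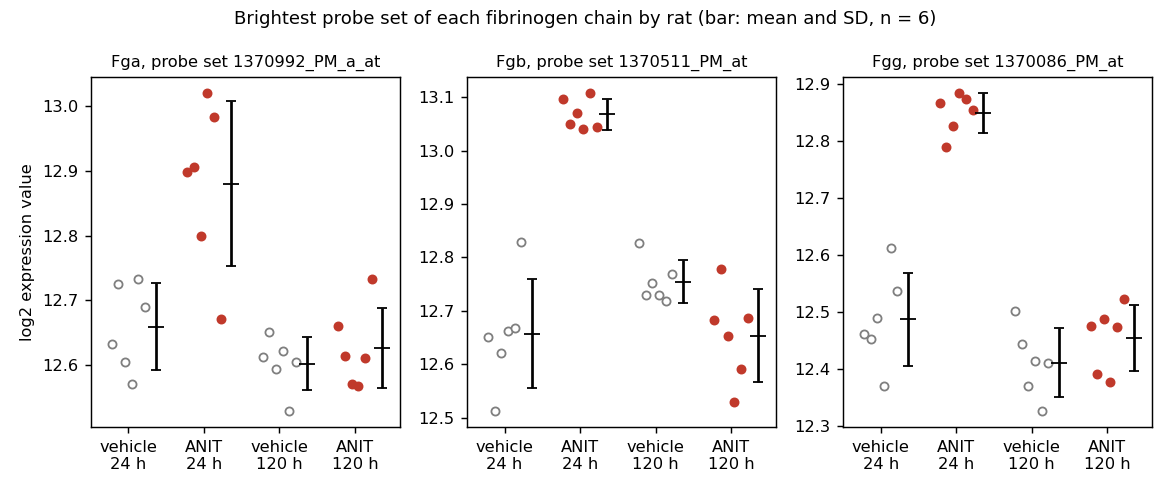
Log2 expression value of the brightest probe set of Fga, Fgb and Fgg in each of 24 rats, by group; open points are vehicle and filled points ANIT rats, and the bars are the group mean and SD (n = 6). The vertical axes do not start at 0 and differ between panels. The ANIT rats of 24 h sit at 13.04 to 13.11 for Fgb and 12.79 to 12.88 for Fgg, above all other rats, while the lowest ANIT rat for Fga (12.67) lies among the vehicle rats.

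All 3 chains were thus called higher at 24 h, against 12.9% of all 13438 genes called higher and 5.31% called lower. For Fgb and Fgg, 2 of the 3 chains, the 24 h groups did not overlap, against 5.54% of all genes with every ANIT rat above every vehicle rat. The split of calls over all genes depended on the scaling: 1738 rose and 713 fell in the fit reported here, 1293 and 1407 with the level of the hybridisation controls as a covariate, 462 and 445 with the beta-actin ratio, 821 and 733 without the 6 narrow arrays, 1256 and 1325 when bands of array spread were blocked, 1748 and 1088 after quantile normalization, and 1874 and 434 after shifting each array to a common median. Fgb kept a change between 0.36 and 0.49 in these fits and with the other covariates, and Fgg between 0.36 and 0.44.

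The order of the group means was read for each chain separately, since levels of different probe sets are not comparable. ANIT rats of 24 h came first for all 3 chains. For Fga the other groups followed as vehicle 24 h (12.66), ANIT 120 h (12.63) and vehicle 120 h (12.60), and for Fgg in the same order (12.49, 12.46 and 12.41). For Fgb the order was vehicle 120 h (12.75), vehicle 24 h (12.66) and ANIT 120 h (12.65). These neighbours overlapped in every case. In vehicle rats the change from 24 h to 120 h was -0.06 ± 0.07 (SE, n = 6 and 6, limma adjusted p = 0.698) for Fga, 0.10 ± 0.07 (adjusted p = 0.508) for Fgb and -0.08 ± 0.06 (adjusted p = 0.577) for Fgg. None of the 3 chains passed this test at an unadjusted p under 0.05 either, and 0.00744% of all genes were called.

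On the brightest probe sets, the ANIT and vehicle groups of 120 h overlapped for all 3 chains. The change was 0.02 ± 0.07 (SE; 95% interval -0.12 to 0.17, limma adjusted p = 0.904) for Fga and 0.04 ± 0.06 (-0.09 to 0.17, adjusted p = 0.788) for Fgg. For Fgb it was -0.10 ± 0.07 (-0.24 to 0.04, adjusted p = 0.515), with 5 of 6 ANIT rats below every vehicle rat. The exact permutation test of Fgb at 120 h gave p = 0.026 on its own and 0.0779 after adjustment over the 18 tests of the 6 probe sets. None of the 3 chains was called by limma, at an unadjusted p under 0.05 either, against 2.02% of all genes called in either direction (0.513% higher, 1.51% lower). That split also moved with the setting: 69 rose and 203 fell in the fit reported here, 142 and 52 without the 6 narrow arrays, 253 and 421 with the control level as a covariate, and 191 and 269 after quantile normalization.

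The response at 120 h was tested directly against that at 24 h. The ANIT effect at 120 h minus that at 24 h was -0.51 ± 0.09 (SE; 95% interval -0.70 to -0.32, limma adjusted p = 0.000589) for Fgb and -0.32 ± 0.09 (-0.50 to -0.13, adjusted p = 0.0187) for Fgg. For Fga the difference was -0.20 ± 0.10 (-0.40 to 0.0049, adjusted p = 0.179). So 2 of the 3 chains were called lower, against 11% of all genes. Over all genes 448 were called higher and 1476 lower for this difference, 193 and 245 with the beta-actin ratio as a covariate, 516 and 336 without the narrow arrays, 821 and 927 with the control level, and 221 and 1599 at a common median. For Fgg the call was lost when the beta-actin ratio entered as a covariate (-0.33, adjusted p = 0.196), without the 6 narrow arrays (-0.32, adjusted p = 0.0742) and with array bands blocked (-0.30, adjusted p = 0.062). For Fgb it was lost only with the beta-actin ratio (-0.45, adjusted p = 0.0645) among the alternatives run.

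The second Fga probe set, 1371258_PM_at, moved more than the first. Its value was lowest 11.19, median 11.41 and highest 11.67 in vehicle rats at 24 h, and 12.17, 12.21 and 12.30 in ANIT rats. At 120 h it was 11.37, 11.42 and 11.63 in vehicle and 10.88, 11.33 and 11.48 in ANIT rats. The ANIT rats of 24 h lay at least 0.50 above all vehicle rats of that time and above both 120 h groups. The vehicle rats of 24 h fell into a lower and a higher set: rats 2, 3 and 4 had 11.19 to 11.22 and rats 1, 5 and 6 had 11.61 to 11.67. The narrow arrays were rats 3 and 4 of the lower set and rat 5 of the higher set. A link of these sets with array spread was not tested. The log2 change at 24 h was 0.80 ± 0.10 (SE; 1.75-fold, limma adjusted p = 6.912e-06 over 31042 probe sets), and the call held in all 31 alternatives run for it, from 0.67 to 0.88. At 120 h the change was -0.19 ± 0.10 (95% interval -0.41 to 0.03, adjusted p = 0.5016), with 4 of 6 ANIT rats below every vehicle rat, and the difference between times was -0.996 ± 0.15 (adjusted p = 0.0001105), where 6.39% of all probe sets were called lower.

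The probe sets of Fga therefore disagreed in size. Within each array the second minus the first probe set was -1.23 ± 0.22 (SD, n = 6) for vehicle and -0.65 ± 0.14 for ANIT at 24 h. This gap was smaller in ANIT rats by 0.58 ± 0.11 (SE), with 6 of 6 ANIT rats above all vehicle rats (exact test, p = 0.002165 and 0.004329 when adjusted over 2 tests). The 120 h gap was wider in ANIT rats, by -0.22 ± 0.09, with 5 of 6 below all vehicle rats (exact permutation p = 0.0368, adjusted p = 0.0368). The comparison of these probe sets was chosen after the values had been seen. At 120 h the narrow arrays were all of ANIT rats, 3 in number. Among the arrays of widest value range, the 120 h change was -0.02 for the second and 0.05 for the first probe set (3 ANIT, 2 vehicle rats). The part of array spread in the 120 h gap was not tested. The first probe set had a mean of 12.69, brighter than 99.9% of all probe sets, and the second a mean of 11.59, brighter than 99.19%.

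The other probe sets of Fgb gave little signal. Probe set 1388266_PM_at had a mean of 3.79, brighter than 11.36% of all probe sets, with 3.62, 3.68 and 4.05 (lowest, median, highest) in vehicle and 3.88, 3.96 and 4.16 in ANIT rats at 24 h. Its change was 0.25 ± 0.09 (SE, 95% interval 0.07 to 0.43, limma adjusted p = 0.06202), with overlapping groups. It was called in 7 of 31 alternatives, 2 of which left out 1 rat each, namely vehicle rat 5 of 24 h and vehicle rat 4 of 120 h. Probe set 1371234_PM_at had a mean of 2.99, brighter than 0.93% of all probe sets, with 2.83, 2.96 and 3.09 in vehicle and 2.97, 3.09 and 3.16 in ANIT rats at 24 h. Its change was 0.11 ± 0.07 (SE, -0.04 to 0.26, adjusted p = 0.3343). At 120 h these dim probe sets ranged from 3.43 to 3.84 and from 2.86 to 3.16 over both groups, which overlapped. In the fit over 31042 probe sets, 4 of the 6 fibrinogen probe sets were called higher at 24 h, against 7.9% of all, and 3 of the 6 had no overlap between the 24 h groups, against 3.65% of all. At 120 h 0 of the 6 were called by limma, adjusted or not, against 0.963% of all.

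**Figure D2:**
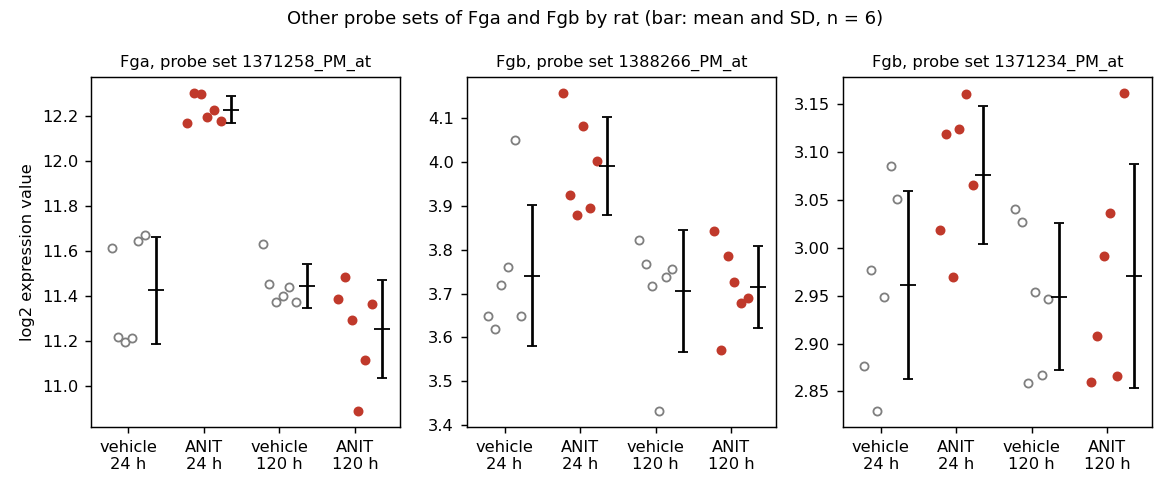
Log2 expression value of the second Fga probe set and of both dim Fgb probe sets in each of 24 rats, with group mean and SD (n = 6); open points are vehicle and filled points ANIT rats. The vertical axes do not start at 0 and differ between panels. The ANIT rats of 24 h sit at 12.17 to 12.30 for the second Fga probe set, above all others, whereas the groups overlap for both Fgb probe sets.

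**Figure D3:**
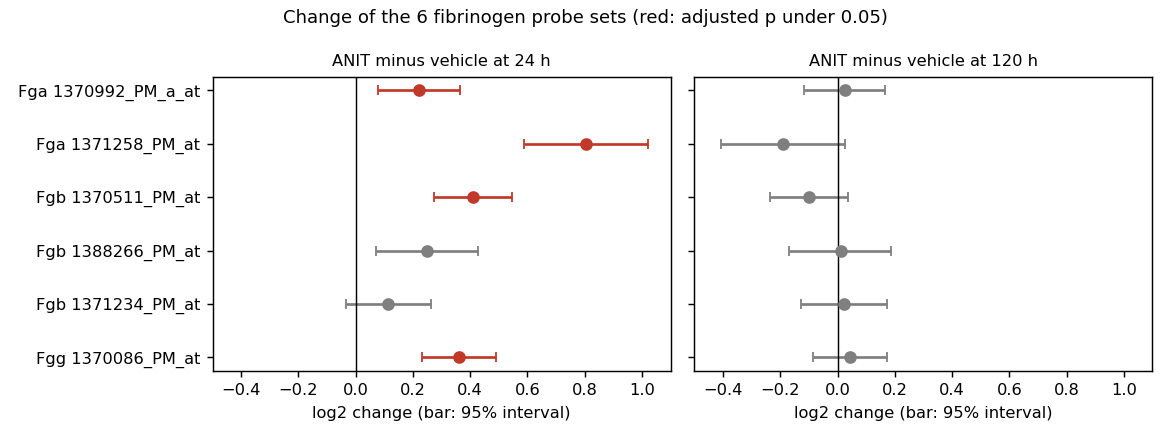
Log2 change, ANIT minus vehicle, of the 6 fibrinogen probe sets at 24 h and at 120 h, with 95% intervals from limma over 31042 probe sets; red marks an adjusted p under 0.05. At 24 h the changes run from 0.11 to 0.80 and 4 of 6 are called, and at 120 h all 6 intervals include 0.

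Whether the chains changed by unequal amounts was tested on their difference within each array, with an exact permutation test and adjustment over 6 tests. With the brightest probe sets, Fga rose less than Fgb at 24 h (-0.19 ± 0.07, SE, n = 6 and 6, adjusted p = 0.03247, 4 of 6 ANIT rats below all vehicle rats) and less than Fgg (-0.14 ± 0.06, adjusted p = 0.03247, 4 of 6). With the second Fga probe set the order was turned, with Fga above Fgb by 0.39 ± 0.08 and above Fgg by 0.44 ± 0.09 (exact permutation, adjusted p = 0.006494 for both, 6 of 6 ANIT rats above). Which chain rose most at 24 h thus depended on the Fga probe set. On the brightest probe sets, single rats also decided these calls. Fga against Fgb was no longer called when vehicle rat 1, 2 or 5, or ANIT rat 1, 2, 3 or 6, of 24 h was left out (exact permutation, adjusted p from 0.0519 to 0.0714). Fga against Fgg was no longer called when vehicle rat 1, 2, 4 or 6 of 24 h was left out (from 0.0519 to 0.0649).

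For Fgb and Fgg the difference in change at 24 h was 0.05 ± 0.05 (exact permutation, adjusted p = 0.3792). At 120 h Fgb was lower relative to both others: Fgb against Fgg differed by -0.14 ± 0.04 (adjusted p = 0.03247, 5 of 6 ANIT rats below all vehicle rats), and Fga against Fgb by 0.13 ± 0.04 (exact permutation, adjusted p = 0.03247, 4 of 6 above). Leaving out vehicle rat 1 or 5, or ANIT rat 4 or 6, of 120 h removed the Fga against Fgb call (adjusted p from 0.0519 to 0.0617), and leaving out vehicle rat 5 removed the Fgb against Fgg call (0.0519). Without the 6 narrow arrays both were smaller (-0.0896 and 0.0621) and not called. With the second Fga probe set, Fga against Fgb at 120 h was -0.09 ± 0.06 (exact permutation, adjusted p = 0.2442). Fga against Fgg differed by -0.02 ± 0.03 at 120 h (exact permutation, adjusted p = 0.4892), and by -0.23 ± 0.09 with the second Fga probe set (adjusted p = 0.03247).

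The bright probe sets lay close to the brightest value of their arrays. On average Fgb was 0.693 log2 units below the array maximum in the vehicle group of 24 h and 0.313 below it in the ANIT group. Fgg was 0.863 and 0.532 below, the first Fga probe set 0.692 and 0.501, and the second Fga probe set 1.925 and 1.151. The part of this closeness in the size of the changes was not tested. Among the 95 genes with a mean of at least 12, 17 rose and 22 fell at 24 h, with a median change of -0.07. By the size of the rise Fgb was number 5 among them, Fgg number 6 and Fga number 13. The larger rises were those of Orm1 (0.95), Saa4 (0.70) and Serpina3n (0.45), which encode acute phase proteins, and of the metallothionein Mt2A (0.43).

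By rank, rats with a higher Fga value tended to have a higher Fgg value within their group. Both values come from the same array, and the part of shared array scaling was not tested. With group means removed, Fga and Fgg correlated over the 24 rats at Pearson r = 0.47 (permutation p = 0.00749, adjusted p = 0.0674 over 9 relations) and Spearman rho = 0.60 (permutation p = 0.00255, adjusted p = 0.02295). Without the 2 rats farthest from the median of Fga, r was 0.61, and within the groups it was 0.71 (vehicle) and 0.31 (ANIT) at 24 h and 0.75 and 0.62 at 120 h. Fga and Fgb gave r = 0.14 and rho = 0.26 (permutation p = 0.463 and 0.247, adjusted p = 0.521 and 0.371), and r = 0.18 without the 2 farthest rats. Fgb and Fgg gave r = 0.32 and rho = 0.39 (permutation p = 0.226 and 0.0953, adjusted p = 0.406 and 0.371), and r = 0.25 without the 2 farthest rats. The level of the hybridisation controls gave r of 0.37 with Fga, -0.21 with Fgb and 0.31 with Fgg, and the beta-actin ratio 0.29, 0.26 and -0.04 (permutation, adjusted p of at least 0.319). The corresponding rho values were 0.31, -0.13 and 0.29 for the control level and 0.10, 0.19 and -0.29 for the ratio (permutation, adjusted p of at least 0.371). Without the 2 farthest rats r was 0.33, -0.27 and 0.15 for the control level and 0.23, -0.05 and -0.40 for the ratio. Within groups, the control level gave r with Fga of 0.13 (vehicle) and 0.85 (ANIT) at 24 h and 0.40 and 0.23 at 120 h. In the same order it gave -0.03, 0.0044, 0.43 and -0.60 with Fgb, and 0.36, 0.47, 0.73 and 0.0055 with Fgg, each over 6 rats. The r with the ratio changed sign between groups: with Fga r was -0.83 (vehicle) and 0.74 (ANIT) at 24 h and -0.17 and 0.63 at 120 h, with Fgb -0.45, 0.32, -0.12 and 0.71, and with Fgg -0.72, -0.20, -0.44 and 0.55, each over 6 rats.

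Some array measures moved with the groups. The 9 spiked hybridisation controls lay between 10.48 and 11.69 over the 24 arrays. By the spread of their values, 6 arrays were narrow (3 vehicle 24 h and 3 ANIT 120 h), 9 middle and 9 wide, bands drawn from the data for which the labels name no source. Within the middle and the wide band the 24 h change was 0.40 and 0.42 for Fgb, 0.35 and 0.39 for Fgg, 0.26 and 0.16 for Fga, and 0.80 and 0.60 for its second probe set. These rest on 3 ANIT against 2 vehicle rats in the middle and 3 against 1 in the wide band, and the narrow band held no ANIT rat of 24 h. At 120 h the wide band alone held both groups, with -0.03 for Fgb, 0.10 for Fgg and 0.05 for Fga. For the second Fga probe set the change there was -0.02, over 3 ANIT against 2 vehicle rats. The log2 ratio of the 3′ to the 5′ beta-actin control, an index of RNA integrity and amplification, was 2.77 to 2.91 for vehicle and 2.98 to 3.18 for ANIT at 24 h, with no overlap, and 2.76 to 2.98 and 2.48 to 2.93 at 120 h. With this ratio in the model, Fgb changed by 0.36 (limma adjusted p = 0.0263) and Fgg by 0.37 (adjusted p = 0.018). Since the 24 h groups did not overlap in the ratio, such a fit cannot tell ANIT and the ratio apart.

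The cells that make fibrinogen were represented as the label liver says. Albumin RNA, Alb, was 12.96 to 13.31 in the 24 rats, changed by -0.14 ± 0.07 (SE, limma adjusted p = 0.158) at 24 h, and Ttr, transthyretin, by -0.17 ± 0.06 (adjusted p = 0.063). Of 8 measured hepatocyte markers (of 9 listed), 1 rose and 1 fell at 24 h, 12.5% each against 12.9% and 5.31% of all genes. Their median change was -0.09. The log2 of their summed signals, which the brightest markers weigh most in, was 15.72 to 15.79 in vehicle and 15.60 to 15.73 in ANIT rats. The riser was Hnf4a (0.31 ± 0.09, adjusted p = 0.0187), a hepatocyte transcription factor, which turned to -0.12 with the mean of its probe sets and lost its call when vehicle rat 3 or ANIT rat 1 or 6 of 24 h was left out. The faller was Ahsg (-0.27 ± 0.07, adjusted p = 0.00609), the negative acute phase protein fetuin-A. At 120 h 0 of 8 were called by limma (2 at an unadjusted p under 0.05), and the sums were 15.68 to 15.75 and 15.59 to 15.70.

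Other cells were represented too. Over all genes 12.9% were called higher and 5.31% lower at 24 h, and 0.513% and 1.51% at 120 h. Of 7 measured neutrophil markers (of 8), 3 (42.9%) rose at 24 h, S100a8 by 1.82 ± 0.38, S100a9 by 0.87 ± 0.22 and Il1r2 by 0.84 ± 0.16. Mmp8, Mmp9, Camp and Cxcr2 had low signals (means 3.30, 3.76, 4.98 and 4.96) and changed by -0.07 to 0.03, and the median of the 7 was 0.03. The riser Il1r2 also had a low signal (mean 4.22), and the 24 h groups overlapped for Il1r2 and S100a9. The log2 of the summed signals of the 7, of which S100a8 was the brightest, was 7.49 to 8.57 in vehicle and 8.54 to 9.32 in ANIT rats. The part of neutrophils in the fibrinogen changes was not tested. Of 4 measured platelet and megakaryocyte markers (of 8), 0 were called by limma at either time (unadjusted p under 0.05: 2 at 24 h and 0 at 120 h), with sums of 7.71 to 8.12 for vehicle and 7.75 to 8.24 for ANIT at 24 h. Of 4 measured Kupffer cell and macrophage markers (of 7), 1 rose at both times, Cd163 (0.38 ± 0.10 at 24 h). Adgre1 (-0.36 ± 0.15), Clec4f (-0.04 ± 0.10) and Cd68 (0.22 ± 0.13) were not called at 24 h. The 24 h call of Cd163 was kept in 31 of 36 alternatives. It was lost with the beta-actin ratio, with both covariates, after quantile normalization, without the narrow arrays and with the bands blocked. Of 6 bile duct markers 0 were called by limma at 24 h, adjusted or not, and 2 (33.3%) rose at 120 h, Krt19 (0.73 ± 0.12) and Cftr (0.49 ± 0.12). The Cftr call was lost when vehicle rat 1, 2, 4, 5 or 6 or ANIT rat 1, 3, 4 or 6 of 120 h was left out, and that of Cd163 at 120 h (0.43 ± 0.10) without vehicle rat 1, 5 or 6 or ANIT rat 6. Of 6 stellate cell markers 1 (16.7%) fell at 24 h, Lrat. Of 5 measured endothelial markers (of 6) Lyve1 rose (20.0%) and Kdr and Stab2 fell (40.0%). Stab2 was called in 15 of 36 alternatives and in 7 of the 24 that leave out 1 rat. At 120 h 0 of the neutrophil, stellate cell and endothelial markers were called by limma (1, 2 and 0 at an unadjusted p under 0.05).

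The neighbouring gene Lrat, which esterifies retinol in stellate cells, went the opposite way from the chains at 24 h. It was 7.94 to 8.85 in vehicle and 7.02 to 7.54 in ANIT rats, with no overlap, a change of -1.25 ± 0.17 (SE, limma adjusted p = 6.49e-06). At 120 h the change was -0.38 ± 0.17 (adjusted p = 0.304).

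The list for the IL-6 and STAT3 route to fibrinogen also holds interleukin-1 genes and inhibitors of the route. Of its 27 genes 24 were measured, and 6 rose and 1 fell at 24 h, with a median change of 0.10. Over all genes 12.9% rose and 5.31% fell, with a median of 0.0046. Stat3, the transcription factor itself, was 7.49 to 8.76 in vehicle and 9.52 to 9.85 in ANIT rats, a change of 1.52 ± 0.19 (SE, limma adjusted p = 1.956e-06). The phosphatase Ptpn11 rose by 0.45 ± 0.12 and Cebpd, a C/EBP factor of the acute phase, by 0.55 ± 0.16. Il1r1, the receptor of interleukin-1 and not of interleukin-6, rose by 2.57 ± 0.26. Socs3, the STAT3-induced inhibitor of the pathway, rose by 0.28 ± 0.09 (adjusted p = 0.0302) at a low signal of 3.99 to 4.56. Its call was lost when vehicle rat 2 or 4 or ANIT rat 1, 2, 4 or 6 of 24 h was left out. Nr3c1, the glucocorticoid receptor, fell by 0.55 ± 0.13 (adjusted p = 0.00304). With the beta-actin ratio as a covariate 2 of the 24 rose and 1 fell.

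The ligand and its receptors were not called at 24 h. Il6 had a change of 0.39 ± 0.20 (SE, limma adjusted p = 0.186), with 3.60 to 4.08 in vehicle and 3.67 to 5.28 in ANIT rats, a low signal that overlapped. Il6st, the shared receptor subunit gp130, had 0.03 ± 0.09 (adjusted p = 0.848), Il6r had 0.30 ± 0.17 (adjusted p = 0.226) and Cebpb had 0.37 ± 0.14 (adjusted p = 0.0617). At 120 h 0 of the 24 rose and 1 fell, Il6r (-0.63 ± 0.17, adjusted p = 0.0457). That call was kept in 16 of 36 alternatives, and was lost without any one of the 24 h vehicle rats 2, 4 and 6, the 24 h ANIT rats 3, 4 and 6, the 120 h vehicle rats 1 to 5 and the 120 h ANIT rats 3, 5 and 6.

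Of the genes for chain assembly and secretion all 20 listed were measured, and 16 rose and 0 fell at 24 h, with a median change of 0.68. The share of 80.0% stood against 12.9% of all genes called higher. Over the reported fit and its alternatives, 38 in all, between 12 and 16 rose and 0 fell. Sec23b, a coat subunit of the vesicles that leave the endoplasmic reticulum, went from 7.14 to 8.21 in vehicle to 9.31 to 9.91 in ANIT rats, a change of 1.85 ± 0.17 (SE, limma adjusted p = 1.977e-08). Its partner coat subunit Sec24d rose by 0.83 ± 0.09, the cargo receptor Surf4 by 0.88 ± 0.10, and Hspa5, the chaperone BiP, by 0.82 ± 0.10. At 120 h 0 of 20 were called by limma (2 at an unadjusted p under 0.05), with a median of -0.01, and 15 of 20 had a smaller ANIT effect at 120 h than at 24 h by the test of that difference.

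Genes of fibrin formation and lysis were mixed. Of 15 measured (of 17), 4 rose and 1 fell at 24 h (26.7% and 6.67%, against 12.9% and 5.31% of all genes, median 0.07), and 0 were called by limma at 120 h (2 at an unadjusted p under 0.05, median 0.06). Thbd, thrombomodulin, which turns thrombin from fibrinogen toward protein C, rose by 0.98 ± 0.17 (SE, limma adjusted p = 0.000149). Anxa2 and S100a10, a cell surface pair that binds plasminogen and its activator, rose by 0.58 ± 0.17 and 0.54 ± 0.17, and Plat, the tissue plasminogen activator, by 0.73 ± 0.25 (adjusted p = 0.0443), the last named after its value was seen. Plg, plasminogen itself, fell by 0.25 ± 0.07 (adjusted p = 0.0125). Plat was called in 17 of 35 alternatives and Anxa2 in 31 of 36. The Anxa2 call was lost with the mean of its probe sets, without the narrow arrays, and with either covariate or both. The count of calls was 3 instead of 5 when vehicle rat 2 or 3 or ANIT rat 3, 5 or 6 of 24 h was left out, which are the rats without which S100a10 lost its call, and 1 with the beta-actin ratio.

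Of 10 measured receptors that bind fibrinogen or fibrin (of 12), 3 rose and 0 fell at 24 h (30.0% higher, against 12.9% of all genes, median 0.04), and 0 were called by limma at 120 h, adjusted or not (median 0.01). Icam1, an adhesion molecule that binds fibrinogen, was 6.45 to 7.02 in vehicle and 7.33 to 8.78 in ANIT rats, a change of 1.38 ± 0.22 (SE, limma adjusted p = 5.62e-05). The integrin subunits Itgb1 and Itga5 rose by 0.35 ± 0.09 and 0.54 ± 0.17, and without the 6 narrow arrays 1 of the 10 was called. Itga5 also lost its call when vehicle rat 3, 5 or 6 or ANIT rat 1, 3 or 6 of 24 h was left out.

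Of 16 measured genes that share the fibrinogen C-terminal domain (of 19), 1 rose and 1 fell at 24 h (median -0.06), 6.25% in each direction against 12.9% of all genes higher and 5.31% lower. Fgl2, a membrane prothrombinase, rose by 0.85 ± 0.15 (SE, limma adjusted p = 0.000188) and Angptl4, an inhibitor of lipoprotein lipase, fell by 0.92 ± 0.16. Fgl1, the relative of fibrinogen that hepatocytes secrete, had 12.25 to 12.42 in vehicle and 12.39 to 12.59 in ANIT rats, a change of 0.14 ± 0.06 that was not called (adjusted p = 0.148). At 120 h 1 of the 16 rose, Mfap4, a matrix protein, by 0.91 ± 0.15 (adjusted p = 0.000999).

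**Figure D4:**
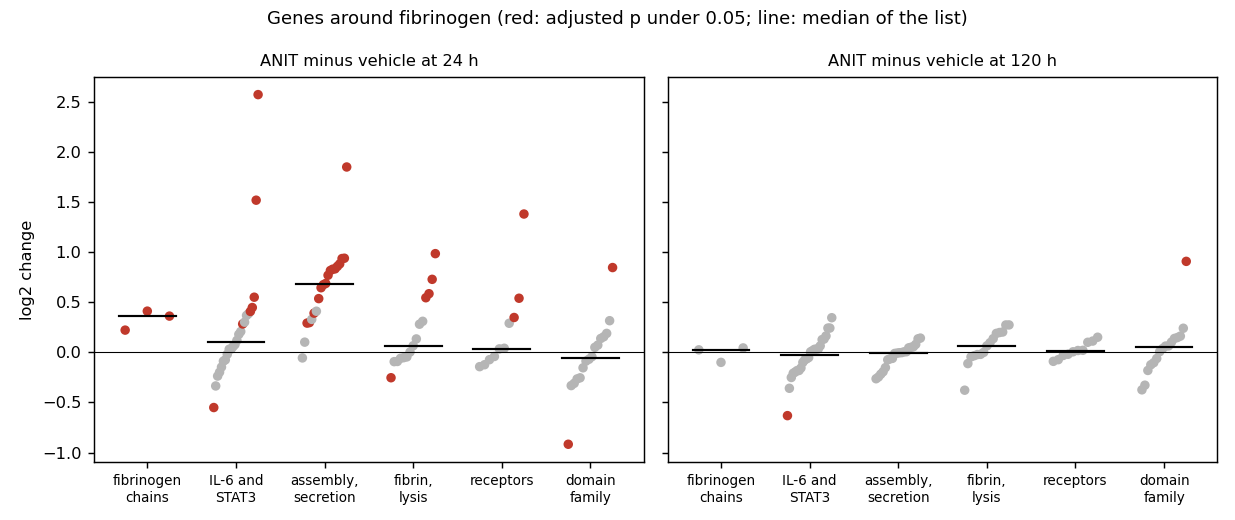
Log2 change, ANIT minus vehicle, of the 3 fibrinogen chains and of 5 lists of genes around them at 24 h and at 120 h; each point is 1 gene, red marks a limma adjusted p under 0.05, and the line is the median of the list. At 24 h 16 of 20 assembly and secretion genes are called higher with a median of 0.68, and at 120 h 1 gene of the IL-6 and STAT3 list and 1 of the domain family are called.

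The genes whose pattern was most like that of the chains were ranked by Pearson r with the mean of the 3 chains, each scaled to an SD of 1, over all 24 arrays. The first were A2m (r = 0.95), Serpina3n (0.94), Cyp1a1 (0.92), Atf4 (0.92) and Dnajb11 (0.91), followed by Alpl, Wfdc21 and Saa4 (0.91 each). These r values include the differences between groups. With group means removed, Serpina3n, a protease inhibitor of the acute phase, stayed in the first 8 with r = 0.62, whereas A2m had 0.46, Cyp1a1 0.15 and Dnajb11 -0.14. The first by that measure were Hmces and Dlgap3 (0.67 each), Serpina12 (0.65), Prl5a1 (0.62) and, after Serpina3n, Fam111a (0.61), Tmem179 (0.61) and Lrrc56 (0.59). These likenesses share arrays and scaling and are given as a description, without a test.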

How the data were processed

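Liver RNA of 24 rats was measured on 24 arrays. Values in the deposited table are log2 expression per probe set, and the submitters' processing notes name RMA and Partek, with versions, settings and annotation not given in the sources used here. RMA, by its usual definition, combines the probes of a set and equalises the arrays, so differences in total signal between arrays are not kept. The deposited arrays were close in mean (5.86 to 5.89) but not equal in median (5.34 to 5.54) or SD (1.84 to 2.09). Groups came from the labels, and replicate numbers name rats in accession order. Probe sets were named from the platform annotation, which can be old: 19068 name 1 gene, 573 several and 11498 none, and 97 are controls. One probe set per gene, the one with the highest mean, gave 13438 genes.

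limma 3.58.1 in R 4.3.3 was fitted to 4 group means over all 24 arrays (lmFit and eBayes), with Benjamini-Hochberg adjustment over all genes or all 31042 other probe sets and a threshold of 0.05. It was tested on simulated data first. Exact permutation tests, correlations (100000 permutations within groups) and figures used Python 3.11.15, numpy 2.4.6, scipy 1.17.1, pandas 2.3.3 and matplotlib 3.10.9. Alternatives covered covariates, normalization, array sets, probe set choice, filters, tests and leaving out each rat. Using both covariates together and the second Fga probe set were added after seeing the data.

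The members and gene lists were chosen with earlier results of these data known. The genes named are the chains, a few chosen genes around them (1 item is not reported here), up to 4 per list and time with the smallest p, and the 8 most like the chains by either measure. Lists are described by counts and medians without a set test. Whether the chains differ in RNA amount was not analysed here, since levels of different probe sets are not comparable.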

Additional observations from a re-analysis of the deposited data

Results flagged for a closer look

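The ANIT effect differed between times, by the limma test of the difference itself, for Fgb (-0.51 ± 0.09, SE, adjusted p = 0.000589), for Fgg (-0.32 ± 0.09, adjusted p = 0.0187) and for the second Fga probe set (-0.996 ± 0.15, adjusted p = 0.0001105). In all 3 cases the effect was smaller at 120 h.

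In 3 of the 24 sets of 6 rats (6 probe sets in 4 groups), 1 rat stood apart from the other 5, where chance gives about 1 in 20. Vehicle rat 1 of 120 h had the highest value of the second Fga probe set in its group, 11.63. Vehicle rat 5 of 24 h had the highest value of Fgb probe set 1388266_PM_at, 4.05, and vehicle rat 4 of 120 h the lowest, 3.43.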

How the results depend on the processing

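The calls of Fgb and Fgg at 24 h held in every alternative run and without any single rat: Fgb ran from 0.26 (mean of its probe sets) to 0.49, and from 0.38 to 0.45 without single rats, and Fgg from 0.36 to 0.44 and from 0.34 to 0.39. Those alternatives with the beta-actin ratio cannot tell ANIT and the ratio apart at 24 h. Over the chain results, and apart from the settings that leave out 1 rat, 151 alternatives kept direction and call status, 14 lost the call, 6 gained one and 11 turned the direction. The 151 are not a count of calls kept. Many belong to results that were not called in the reported fit and stayed uncalled, such as all 13 for Fgg at 120 h. Fga at 24 h was not called with the beta-actin ratio (0.16), with both covariates (0.17), without the narrow arrays (0.20) or with its 2 groups alone (0.22), and ran from 0.19 to 0.26 without single rats. Its change at 120 h (0.0031 to 0.036 without single rats) turned to -0.0091 at a common median, to -0.0832 with probe set means and to -0.19 with the second probe set, where its vehicle change turned to 0.0195. Its difference between times (-0.24 to -0.17 without single rats) was called at a common median (-0.31, adjusted p = 0.0454), where the median over all genes moved by -0.11, with probe set means (-0.60) and with the second probe set (-0.996). The Fgb difference between times (-0.55 to -0.48) was lost with the beta-actin ratio (-0.45). The Fgg difference (-0.34 to -0.29) was lost with that ratio (-0.33), without the narrow arrays (-0.32), with the band (-0.30) and with both covariates (-0.34). Fgb at 120 h (-0.13 to -0.08) had an unadjusted exact permutation p of 0.026 (-0.10), and 0.0779 after adjustment over 18 tests. The cause of these changes was not tested.

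Unequal change depended on the probe sets. With probe set means, Fga against Fgb was 0.25 at 24 h and -0.0604 at 120 h, Fga against Fgg 0.15 and -0.13, and Fgb against Fgg -0.10 and -0.0665. With the second Fga probe set, Fga against Fgb was 0.39 and -0.0905 and Fga against Fgg 0.44 and -0.23. Without the narrow arrays, the lost calls had -0.21 (Fga against Fgb) and -0.17 (Fga against Fgg) at 24 h, and 0.0621 (Fga against Fgb) and -0.0896 (Fgb against Fgg) at 120 h. Without single rats, Fga against Fgb ran from -0.22 to -0.15 and from 0.11 to 0.15, Fga against Fgg from -0.16 to -0.10, and Fgb against Fgg at 120 h from -0.18 to -0.13. Hnf4a turned to -0.12 with probe set means.

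Genes called at 24 h numbered 2451, and 907 with the beta-actin ratio, 1554 without the narrow arrays and 3683 when probe sets were tested. At 120 h 272 became 674 with the control level, 627 with both covariates, 460 after quantile normalization, 176 with its groups alone, 143 at a common median, and 152 to 167 without the 120 h vehicle rats 3 or 5 or the ANIT rats 4, 5 or 6. The difference between times called 1924, and 438 with the beta-actin ratio, 852 without the narrow arrays, 1137 with both covariates and 3148 without vehicle rat 1 of 24 h. The vehicle comparison called 1, between 0 and 17 in other settings and 175 without that rat. No paired analysis was possible because the labels give each rat its own number. The number of rats, 6 per group, limits what small changes can be called, and the dim Fgb probe sets have signals near the array minimum.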
